A study of Mus musculus with 47 samples.

Results

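Livers of irradiated mice that had worn a zinc oxide (ZnO) sunscreen were set against livers of irradiated mice that had worn none. The comparison rests on 11 of the 47 arrays of the study, chosen from the sample labels by sunscreen and UVR treatment: 5 ZnO + UVR arrays and 6 Control + UVR arrays, each from 1 mouse. All mice were SKH:QS, an albino, hairless, immune-competent strain, were female, and entered the study at 8 weeks of age. ZnO + UVR mice were given a commercial sunscreen with ZnO nanoparticles weekly and then 29 kJ/m2 of simulated solar UVR at each treatment. Control + UVR mice received the same UVR without sunscreen and were sham treated, with the collar and the wash that the other mice had. Both groups had 30 treatments in 36 weeks, and liver was taken the day after the last of them. Other groups used here were ZnO-UVR and Control-UVR, which had the same sunscreen or none and no UVR (6 arrays each), and TiO2 + UVR and Organic + UVR, which had UVR under a sunscreen of TiO2 nanoparticles with organic filters or of organic filters alone (6 arrays each).

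What limits the groups as a model is the housing and the survival. By the methods the mice of a treatment group shared 1 cage, and an effect of the cage and of the treatment then cannot be told apart. The sample labels give individual housing instead. The study also records mice of both groups that did not reach the end, so the livers came from those that did. Among these, its histology found skin lesions in most Control + UVR mice and in a minority of the ZnO + UVR mice. All values are log2 levels from robust multi-array average (RMA) normalization, for 9815 transcripts on a part of the Mouse Gene 1.0 ST array, of which 7450 carried a single gene symbol. The number of arrays limits the precision, and array medians lay close together (5.12 to 5.31 in ZnO + UVR and 5.17 to 5.27 in Control + UVR). The tissue label held against its markers. The 9 measured hepatocyte genes averaged 11.93 to 12.10 over the ZnO + UVR arrays and 11.89 to 12.05 over the Control + UVR arrays, while 23 keratinocyte genes averaged 4.46 to 4.68 in ZnO + UVR and 4.45 to 4.76 in Control + UVR, below the median transcript at 5.23.

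The liver takes up zinc from the blood, stores part of it bound to metallothionein and passes it on to other tissues. Zinc enters the cytosol through the Slc39a (ZIP) transporters and leaves it through the Slc30a (ZnT) transporters. When free zinc rises, the sensor protein MTF1 binds metal response elements in promoters such as that of Slc30a1, the exporter of the plasma membrane. The liver also holds a strong circadian clock, in which activators such as Npas2 and Clock act through E-box elements on the repressor genes Per1, Per2 and Cry1 and on output genes such as Tef.

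Promoters are shown for genes of these systems on which the results below turn. Of the 12 measured zinc transporter genes 9 had a promoter in the RefSeq table of GRCm38.p6, a window of 300 bases around the gene start, and 6 of the 9 held a metal response element, written TGCACNC or TGCGCNC and searched on both strands. Such a match lay in 25.7% of all promoters in the table, and in at least 1 promoter of 28.2% of its genes. The capitals mark the element in Slc30a1 (chr1:191906531-191906830, plus strand, 2 matches) and in Slc30a10 (chr1:185454598-185454897, plus strand, 3 matches, of which the first 2 overlap).
Slc30a1: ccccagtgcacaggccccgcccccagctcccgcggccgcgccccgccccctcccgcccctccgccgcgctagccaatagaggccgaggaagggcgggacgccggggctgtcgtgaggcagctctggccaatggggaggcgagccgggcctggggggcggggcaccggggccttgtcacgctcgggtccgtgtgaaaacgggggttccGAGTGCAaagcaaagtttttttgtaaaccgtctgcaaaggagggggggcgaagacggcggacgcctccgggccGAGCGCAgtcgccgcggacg
Slc30a10: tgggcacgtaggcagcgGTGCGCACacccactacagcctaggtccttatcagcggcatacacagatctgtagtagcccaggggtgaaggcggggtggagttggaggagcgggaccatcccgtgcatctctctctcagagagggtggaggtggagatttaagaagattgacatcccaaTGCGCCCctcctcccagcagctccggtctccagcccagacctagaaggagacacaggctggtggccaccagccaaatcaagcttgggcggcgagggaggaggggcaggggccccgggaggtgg
Of the 12 measured clock genes 10 had a promoter and 4 of these held the E-box CACGTG, which reads the same on both strands and lay in 7.15% of all promoters and in at least 1 promoter of 8.09% of genes. The capitals mark it in the first start of Per1 (chr11:69098699-69098998, plus strand, 1 match) and of Tef (chr15:81802423-81802722, plus strand, 1 match).
Per1: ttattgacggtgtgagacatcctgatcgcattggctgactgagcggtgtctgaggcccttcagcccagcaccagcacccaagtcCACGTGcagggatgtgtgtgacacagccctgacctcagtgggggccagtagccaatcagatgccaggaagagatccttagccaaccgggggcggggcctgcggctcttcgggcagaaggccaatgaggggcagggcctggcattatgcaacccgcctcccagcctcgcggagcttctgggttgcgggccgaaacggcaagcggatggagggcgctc
Tef: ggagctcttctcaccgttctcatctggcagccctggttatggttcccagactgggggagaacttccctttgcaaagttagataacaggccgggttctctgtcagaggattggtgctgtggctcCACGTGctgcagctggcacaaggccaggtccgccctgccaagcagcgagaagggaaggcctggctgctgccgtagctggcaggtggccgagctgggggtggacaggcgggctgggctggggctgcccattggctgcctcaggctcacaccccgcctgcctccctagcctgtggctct
A match describes the letters of the window and is no evidence of binding.

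No transcript was called different between ZnO + UVR and Control + UVR. At a Benjamini-Hochberg adjusted p under 0.1 limma called 0 of 9815 transcripts (0%), and the smallest adjusted p was 0.815. At an unadjusted p under 0.05 there were 579 (5.9%), of which 257 were higher (2.62%) and 322 lower (3.28%) in ZnO + UVR. The data also bound what could have been missed. The median 95% interval of a transcript reached 0.31 to either side of its difference, and the whole interval lay within a 2-fold change (1 on the log2 scale) for 98.2% of transcripts and within 0.5 on the log2 scale for 66.0%. For the other 178 transcripts a change beyond 2-fold lay inside the interval.

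The differences themselves were small. Their median was -0.01, the middle of the distribution ran from -0.13 to 0.11 (quartiles), and the extremes were -1.17 and 1.06. Only 6 transcripts passed 1 in either direction. Npas2 was above it, and 5 transcripts that match several genes each were below it, none of them with an unadjusted p under 0.05. Groups did not overlap for 56 transcripts (0.571%), with all ZnO + UVR arrays above all Control + UVR arrays for 32 (0.326%) and below them for 24 (0.245%).

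Direction went with brightness. Across transcripts the difference correlated with the mean level (Pearson r = 0.42 across 9815 transcripts, which share arrays and are not independent replicates). The 4933 transcripts brighter than the overall median had a median difference of 0.07 and the 4882 dimmer ones of -0.09. Among bright transcripts 217 were higher and 39 lower at an unadjusted p under 0.05, and among dim ones 40 were higher and 283 lower. The same tilt can be given for a single array as the slope with which its values follow the average array. This array slope averaged 1.02 ± 0.024 (SD, n = 5) in ZnO + UVR and 0.984 ± 0.033 (SD, n = 6) in Control + UVR, a difference of 0.0348 (exact two-sided permutation test over all splits of the arrays, p = 0.0779). The slopes overlapped, at 0.989 to 1.05 in ZnO + UVR and 0.928 to 1.03 in Control + UVR. The slope difference was 0.0046 after quantile normalization (exact permutation test, p = 0.197) and 0.0101 over the brighter transcripts alone (exact permutation test, p = 0.439). Quantile normalization gives all arrays the same distribution and so draws their slopes together by design. With 1 array left out, p lay under 0.05 in 1 of 11 cases (0.0435 without Control + UVR replicate 2, exact permutation test, p = 0.0238) and between 0.0667 and 0.195 in the other 10. Lists of bright genes are therefore read beside a median above 0 and lists of dim genes beside a median below 0. Medians of the lists are also given from a fit of all groups with the slope of each array as a covariate. The slope comes from the same values, so a real change shared by bright transcripts would also enter it. Whether the tilt was technical was not tested. That fit includes Organic-UVR replicate 1 (organic filters, no UVR), whose slope of 0.772 lay below all ZnO + UVR and Control + UVR arrays. How far the covariate medians depend on that array was not tested.

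**Figure D1:**
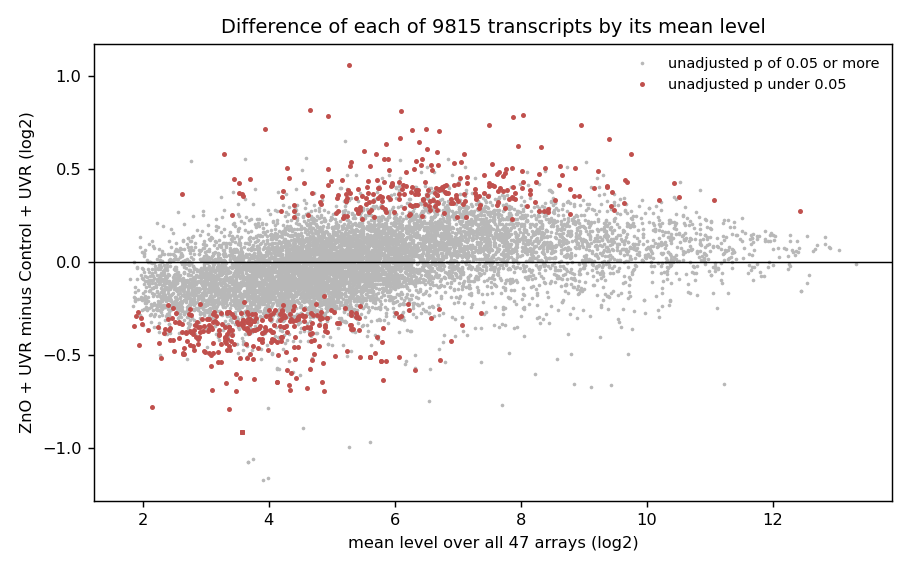
Fitted difference of ZnO + UVR minus Control + UVR (log2, vertical) against the mean level over all 47 arrays (log2, horizontal) for 9815 transcripts, 1 point each, with the 579 at an unadjusted p under 0.05 in red. The cloud tilts upwards, with a median difference of 0.07 for bright and -0.09 for dim transcripts, and none of the red points passed the adjusted threshold.

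Zinc handling was the first group examined, since the sunscreen brought zinc oxide to the skin. Of 24 zinc transporter genes 12 were measured and none was called. Their median difference was 0.06, with 7 above 0 and 5 below, against a median of -0.01 over all transcripts. It was 0.00 with the slope as a covariate and -0.02 after quantile normalization. None of the 6 genes of the zinc storage and sensing list, which covers the metallothioneins and MTF1, was among the 9815 transcripts. These are a part of the array, so the 6 genes could not be examined. Slc30a1 measured 7.38, 7.24, 7.60, 7.20 and 7.00 in ZnO + UVR, against 6.89 to 7.59 (median 7.26) in Control + UVR. The groups lay over each other, and the fitted difference was 0.06 (95% interval -0.23 to 0.35, adjusted p = 0.933 in limma). Slc30a10, which carries manganese and zinc out of the cell, measured 8.27, 8.52, 8.33, 8.73 and 8.28 in ZnO + UVR and 7.99 to 8.48 (median 8.28) in Control + UVR. The difference was 0.19 (95% interval -0.28 to 0.67).

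Slc39a4, a zinc importer of the cell surface that is best known from the gut, had the smallest p of the zinc transporters. It measured 8.09, 8.33, 8.46, 8.50 and 8.32 in ZnO + UVR, against 6.65 to 8.43 (median 7.81) in Control + UVR. The ZnO + UVR arrays lay close together at the upper end of a wide Control + UVR range, and the difference of 0.63 (SE 0.26, 95% interval 0.10 to 1.15, unadjusted p = 0.0203 in limma) was not called. Slc39a14, the importer that serves zinc and non-transferrin iron in hepatocytes, averaged 7.53 ± 0.34 (SD, n = 5) in ZnO + UVR and 7.68 ± 0.48 (SD, n = 6) in Control + UVR, a difference of -0.14 (95% interval -0.60 to 0.32). The other 8 were Slc30a5, Slc30a8, Slc39a2, Slc39a3, Slc39a5, Slc39a9, Slc39a10 and Slc39a11. Their differences ran from -0.25 for Slc39a2 to 0.14 for Slc39a3, and all of their intervals held 0.

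**Figure D2:**
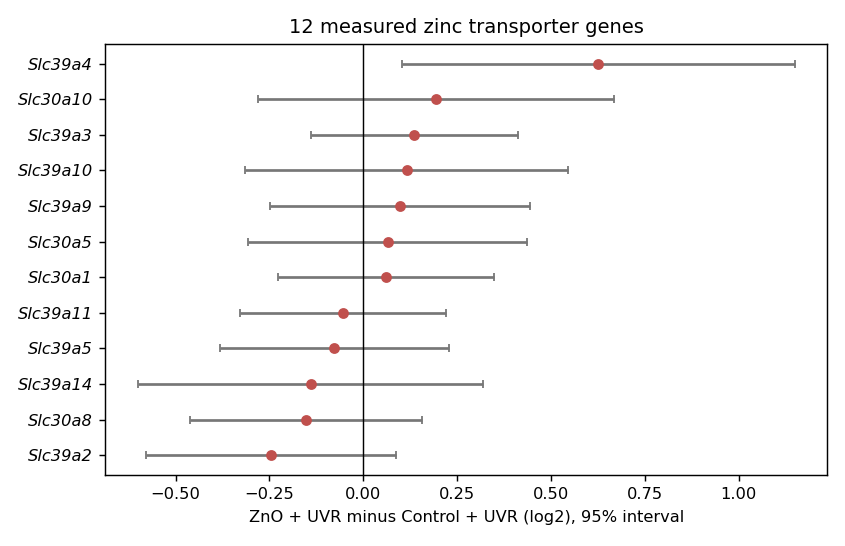
Fitted difference of ZnO + UVR minus Control + UVR (log2) of each of the 12 measured zinc transporter genes, with its 95% interval. The interval of Slc39a4 (0.10 to 1.15) lies above 0, the other 11 hold 0, and none passed the adjusted threshold.

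The transcripts with the smallest p-values were few and modest. Gm11437, a gene model without a known role here, had the smallest. It measured 8.40, 9.02, 8.88, 8.44 and 8.46 in ZnO + UVR, against 7.54 to 8.17 (median 7.90) in Control + UVR. No array of ZnO + UVR reached down to Control + UVR, and the difference was 0.79 (SE 0.20, adjusted p = 0.815 in limma). Sp4, a zinc finger transcription factor gene of the Sp family, followed with a difference of 0.56, from 5.83 to 6.38 in ZnO + UVR and 5.25 to 6.00 in Control + UVR, which overlapped. Pctp, a phosphatidylcholine transfer protein gene, measured 7.17, 7.03, 7.04, 7.71 and 6.98 in ZnO + UVR, against 6.26 to 7.13 (median 6.42) in Control + UVR, and its difference was 0.71. Other transcripts at this end were Ccdc28a (0.52), Gpatch8 (0.51), Daam1 (0.49), Mmrn2 (0.50), Prim1 (0.71) and Ccar2 (0.41), all with an adjusted p of 0.815.

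At the lower end the transcripts were mostly dim. Naip6, of the family of cytosolic bacterial sensors, measured 2.99, 2.85, 3.14, 2.91 and 2.89 in ZnO + UVR, against 3.31 to 3.51 (median 3.46) in Control + UVR. The groups did not overlap, but only 10.6% of transcripts were dimmer, and the difference was -0.48 (SE 0.13, adjusted p = 0.815 in limma). 2210407C18Rik (-0.49), Nutm2 (-0.49), Mir329 (-0.48) and Gsdmc2 (-0.69) had levels of the same order. Uck2, a uridine-cytidine kinase gene at 5.66 ± 0.24 (SD, n = 5) in ZnO + UVR and 6.19 ± 0.38 (SD, n = 6) in Control + UVR, was brighter and differed by -0.53.

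Abcd2, a peroxisomal transporter of very long-chain fatty acids, belonged to the genes that did not overlap and was also 1 of the 5 transcripts called lower in Control + UVR than in Control-UVR (0.0509% of those tested). It measured 9.26, 9.34, 10.02, 9.29 and 9.27 in ZnO + UVR, against 8.31 to 9.05 (median 8.87) in Control + UVR. The difference was 0.66 (SE 0.20, adjusted p = 0.815). In the groups without UVR it averaged 9.67 ± 0.15 in ZnO-UVR and 9.65 ± 0.30 in Control-UVR (SD, n = 6 each). The other 4 of these transcripts were Zfp39, Akap7, N6amt1 and 2610008E11Rik. Their ZnO + UVR minus Control + UVR differences were 0.35, 0.30, 0.28 and 0.32, where Control + UVR minus Control-UVR had given -0.66, -0.59, -0.54 and -0.61. Both comparisons share the Control + UVR arrays, so that a low value in those arrays enters both with opposite sign.

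**Figure D3:**
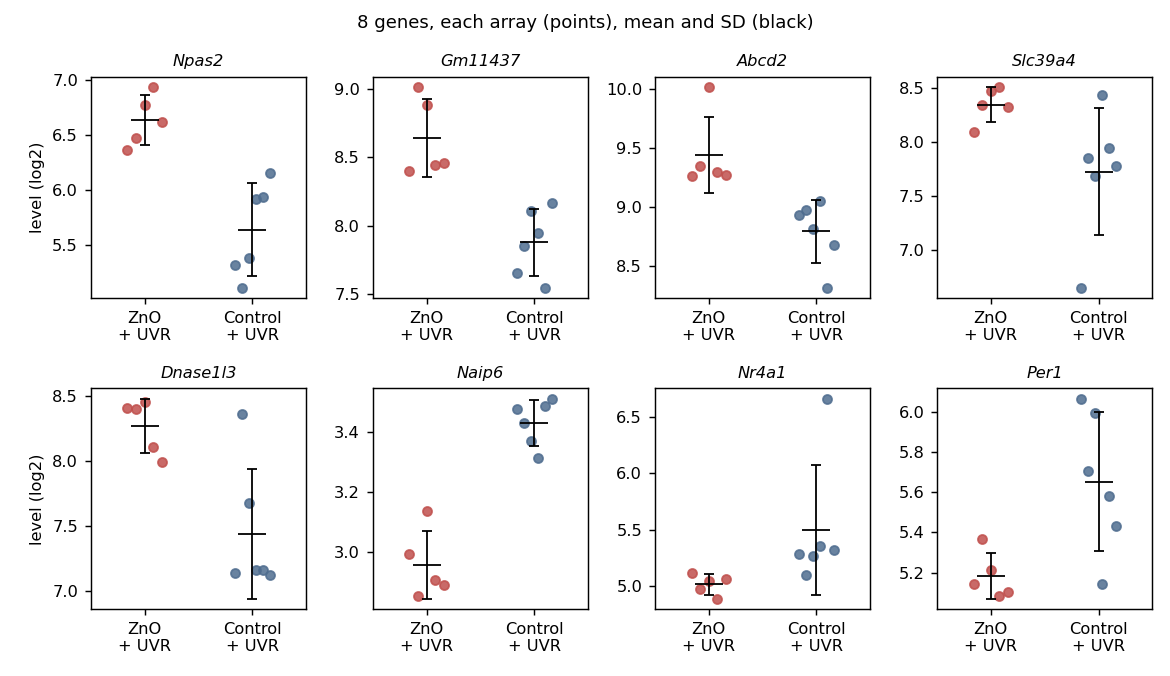
Level (log2) of 8 genes in each ZnO + UVR array (5 red points) and Control + UVR array (6 blue points), with the group mean and SD in black. Arrays of the groups do not overlap for Npas2, Gm11437, Abcd2 and Naip6, overlap for Slc39a4, Dnase1l3, Nr4a1 and Per1, and no gene passed the adjusted threshold.

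Gene lists were described by their counts beside those of all transcripts, of which 4723 lay above 0 and 5092 below. Counts cover only the list members among the 9815 transcripts, which are a part of the array. No member of any list was called. Among the genes of sinusoidal endothelium, the fenestrated lining of the liver sinusoids, 12 of 13 lay above 0, the median difference was 0.24 and 5 had an unadjusted p under 0.05, all higher (38.5%, against 2.62% of all transcripts). Dnase1l3, a secreted DNase made by these cells, measured 8.41, 8.40, 8.46, 8.11 and 8.00 in ZnO + UVR, against 7.12 to 8.37 (median 7.16) in Control + UVR. Most Control + UVR arrays lay well below, but the highest reached into the ZnO + UVR range, and the difference was 0.78 (SE 0.28, unadjusted p = 0.00708 in limma). Pecam1, an adhesion protein of endothelium, did not overlap, with 6.00 to 6.49 in ZnO + UVR and 5.53 to 5.99 in Control + UVR (difference 0.41). Mmrn2 (0.50), the endothelial phosphatase gene Ptprb (0.49) and Oit3 (0.39) were the other 3, whereas the scavenger receptor genes Stab1 and Stab2, defining markers of these cells, differed by 0.12 and 0.18 and the adhesion gene Selp by -0.07. Averaged over the 13 genes, the arrays ran from 6.08 to 6.34 in ZnO + UVR and from 5.75 to 6.21 in Control + UVR. The median was 0.16 with the array slope as a covariate and 0.19 to 0.36 with any 1 of the 11 arrays left out (the highest without ZnO + UVR replicate 5). In bulk tissue fewer cells of a type and less RNA in each cell cannot be told apart.

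Of the genes of immune cells, the 8 measured neutrophil genes had a median difference of -0.24, with 7 below 0, and the 11 genes of T and NK cells one of -0.13, with 9 below 0. Both lists were dim, at array means of 4.57 to 4.78 in ZnO + UVR and 4.66 to 4.98 in Control + UVR for the neutrophil genes. With the array slope as a covariate the medians were -0.19 and -0.05. Ly6g, the neutrophil surface marker, averaged 3.46 ± 0.21 (SD, n = 5) in ZnO + UVR and 3.93 ± 0.33 (SD, n = 6) in Control + UVR. Retnlg, a neutrophil granule protein gene, averaged 5.04 ± 0.17 in ZnO + UVR and 5.50 ± 0.33 in Control + UVR. Themis, needed for T cell development, measured 3.53 to 3.92 in ZnO + UVR and 3.87 to 4.43 in Control + UVR (difference -0.41), and the interleukin receptor gene Il2rb differed by -0.40. The leukocyte genes Ptprc (0.18) and Itgb2 (0.19), which are brighter, lay on the other side of 0. Kupffer cell and macrophage genes had a median of 0.11 (6 of 7 above 0), which was 0.00 with the array slope as a covariate and -0.03 without ZnO + UVR replicate 5. B and plasma cell genes had one of -0.05 (3 of 9 above 0), and of 0.06 with the covariate.

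The genes of the early response to growth and stress signals lay mostly below 0. Of 11 immediate early genes 10 had a difference below 0, with a median of -0.22 and 2 at an unadjusted p under 0.05 (18.2%, against 3.28% lower over all transcripts). Nr4a1, an orphan nuclear receptor gene, measured 5.12, 4.98, 5.05, 4.88 and 5.06 in ZnO + UVR, against 5.10 to 6.66 (median 5.30) in Control + UVR. The ZnO + UVR values were tight, and a single Control + UVR array (replicate 5) stood far above the rest. The difference was -0.51 (SE 0.16, adjusted p = 0.815). Dusp6, which encodes a phosphatase that turns off ERK, differed by -0.43 (5.28 to 6.12 in ZnO + UVR and 5.58 to 6.79 in Control + UVR). Atf3 (-0.44), Egr2 (-0.25), Myc (-0.24), Btg2 (-0.22) and Fos (-0.14) were below 0 with larger p-values, and Klf6 was above it (0.30). Without Control + UVR replicate 5 the median of the list was -0.08, and without the replicate block -0.14. It was -0.21 with the array slope as a covariate.

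Genes of the lipid synthesis lists lay mostly above 0. All 8 measured genes of the sterol list did, with a median of 0.27, as did 7 of 8 of the fatty acid list, with a median of 0.28. The sterol list includes Insig2 (0.30), which holds back sterol synthesis. With the array slope as a covariate these medians were 0.16 and -0.01. Fdft1, squalene synthase, measured 11.27, 11.27, 11.37, 11.09 and 11.09 in ZnO + UVR, against 10.50 to 11.04 (median 10.94) in Control + UVR. The groups did not overlap and the difference was 0.33 (SE 0.13, unadjusted p = 0.0113 in limma). Lss, which forms lanosterol from the product of Sqle, averaged 7.76 ± 0.52 (SD, n = 5) in ZnO + UVR and 7.06 ± 0.65 (SD, n = 6) in Control + UVR (difference 0.74), and Sqle itself differed by 0.11, Hmgcs1 by 0.23 and Idi1 by 0.10. Pnpla3, of the fatty acid list, averaged 6.31 ± 0.70 in ZnO + UVR and 5.93 ± 0.33 in Control + UVR, within its spread. The probeset annotated to Me1, malic enzyme, is counted among the 7 fatty acid genes above 0. It has a number among those of chromosome 13, whereas RefSeq places the gene on chromosome 9. Which transcript gave its difference of 0.54 is therefore not settled.

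Of the 36 interferon response genes listed 8 were measured, and all 8 lay above 0 as well (median 0.25, and 0.05 with the array slope as a covariate). Rtp4, an interferon-induced chaperone gene, measured 7.99, 7.82, 8.13, 7.71 and 7.26 in ZnO + UVR, against 7.03 to 7.70 (median 7.25) in Control + UVR, a difference of 0.48. Irf9, the DNA-binding part of the interferon-activated complex, differed by 0.30 and Stat2, its partner, by 0.25, while Irf1 differed by 0.05.

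DNA damage genes were examined because UVR damages DNA in the skin it reaches. The 8 measured end joining genes, which rejoin broken DNA ends, had a median of 0.20, with 7 above 0, and of 0.08 with the array slope as a covariate. Parp1, the sensor of strand breaks, measured 8.00, 7.98, 7.92, 8.09 and 7.92 in ZnO + UVR and 7.24 to 7.79 (median 7.65) in Control + UVR, without overlap (difference 0.38, SE 0.18). Xrcc5 and Xrcc6, the Ku proteins, differed by 0.30 and 0.25. The 9 measured homologous recombination and Fanconi genes, a further repair list, had a median of 0.07, with 5 above 0 and 4 below. That median was 0.04 with the array slope as a covariate, and Brca1 differed by -0.09. Nucleotide excision repair, which removes UVR lesions, had 6 measured genes with a median of -0.03, and 10 p53 target genes had one of -0.02. These medians were -0.10 and -0.01 with the array slope as a covariate. Of the p53 targets, Sesn1 differed by 0.37 and Gadd45b by -0.30.

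Of 16 cell division genes 10 lay above 0, and 3 had an unadjusted p under 0.05, all higher (18.8%, against 2.62% of all transcripts). Their median was 0.14, also with the array slope as a covariate, and 0.19 after quantile normalization. Prim1, the small subunit of DNA primase, averaged 6.68 ± 0.19 (SD, n = 5) in ZnO + UVR and 5.98 ± 0.49 (SD, n = 6) in Control + UVR, and Mcm6, of the replicative helicase, 6.14 ± 0.47 in ZnO + UVR and 5.57 ± 0.29 in Control + UVR. The third was the thymidine kinase gene Tk1, with a difference of 0.37. The markers of dividing cells Cdk1 (-0.15), Top2a (0.37) and Birc5 (0.09) were dim. Of 20 proteasome genes 18 were above 0 with a median of 0.11 and none at an unadjusted p under 0.05, and of 18 chaperone genes 16 were above 0 with a median of 0.15. With the array slope as a covariate these medians were -0.03 and 0.05. The 7 acute phase genes had a median of 0.00, the 8 NF-kB target and chemokine genes one of -0.01, the 16 antioxidant genes of the NRF2 list one of 0.05, and the 13 xenobiotic metabolism genes one of 0.16, all without a call. The covariate fit gave medians of -0.11 for the acute phase, 0.00 for the NF-kB, -0.10 for the NRF2 and 0.03 for the xenobiotic list. The xenobiotic median was 0.03 without Control + UVR replicate 1 and 0.31 without ZnO + UVR replicate 3.

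**Figure D4:**
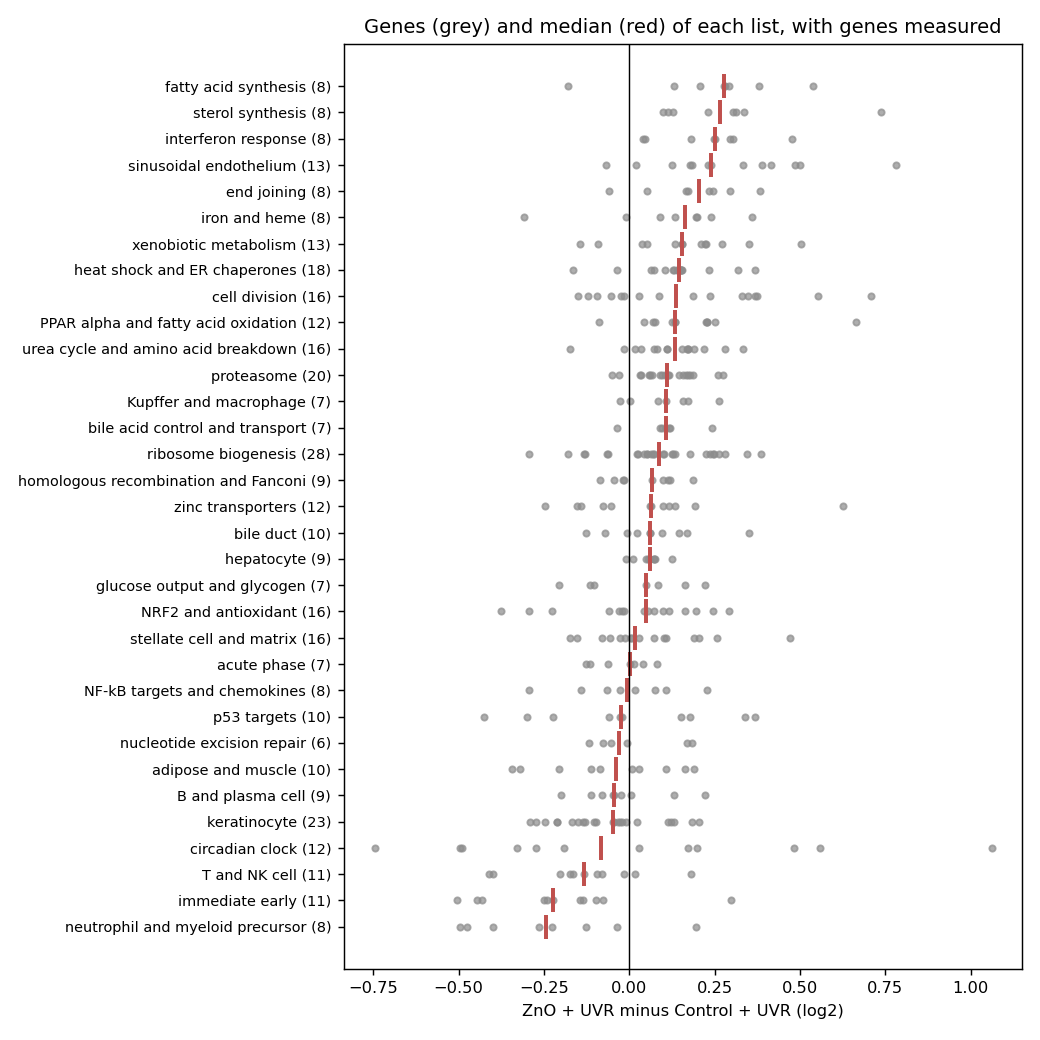
Fitted differences of ZnO + UVR minus Control + UVR (log2) for the measured genes (grey points) of each list with 5 or more of them, the number in brackets, and their median (red mark), ordered by the median. Medians run from -0.24 (neutrophil) to 0.28 (fatty acid synthesis), and no gene of any list passed the adjusted threshold.

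Clock genes were not called but held the largest difference of any named gene. Npas2 measured 6.37, 6.48, 6.78, 6.93 and 6.62 in ZnO + UVR, against 5.11 to 6.16 (median 5.65) in Control + UVR. All ZnO + UVR arrays were above all Control + UVR arrays, and the difference was 1.06 (SE 0.40, 95% interval 0.25 to 1.88, adjusted p = 0.815 in the fit of all groups). In a fit of these 11 arrays alone, with the replicate number as a block, Npas2 was the only transcript called (adjusted p = 0.0451 in limma). The same 11 arrays without the block gave it an adjusted p of 0.425 in limma, and no transcript was called. The call thus depended on the block, and the labels do not say if the replicate number is a batch. Per1 measured 5.15, 5.37, 5.21, 5.08 and 5.10 in ZnO + UVR, against 5.14 to 6.07 (median 5.64) in Control + UVR (difference -0.49, unadjusted p = 0.0213 in limma). Nfil3, a repressor of clock output genes, differed by 0.48 and Cry1 by 0.56, whereas Nr1d1 (-0.50), Nr1d2 (-0.33), Tef (-0.27) and Per2 (-0.19) were below 0 and Hlf (0.03), Csnk1d (0.17) and Csnk1e (0.20) above it. Nr1d1, a repressor whose level swings widely over the day, spread from 7.22 to 9.36 within ZnO + UVR and from 6.98 to 9.75 within Control + UVR. The probeset annotated to Ciart has a number among those of chromosome 10, whereas RefSeq places the gene on chromosome 3, so which transcript gave its difference of -0.75 (SE 0.57) is not settled. The hour at which each liver was taken is not given in the sources used here.

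Whether the difference depended on UVR was tested as the ZnO difference under UVR minus the ZnO difference without it. No transcript was called (0 of 9815, 0%), and 372 had an unadjusted p under 0.05 (3.79%). Without UVR, ZnO-UVR against Control-UVR had 0 called (0%) and 149 at an unadjusted p under 0.05 (1.52%). Gm11437 had the smallest p. It averaged 8.64 ± 0.29 (SD, n = 5) in ZnO + UVR and 7.88 ± 0.25 (SD, n = 6) in Control + UVR, but 8.08 ± 0.40 in ZnO-UVR and 8.40 ± 0.49 in Control-UVR (SD, n = 6 each), and the change of the difference was 1.11 (SE 0.27, adjusted p = 0.701 in limma). The interferon genes Rtp4 and Dhx58, a cytosolic RNA sensor, followed with 1.21 (SE 0.30, adjusted p = 0.701) and 0.97 (SE 0.25, adjusted p = 0.931). Rtp4 averaged 7.45 ± 0.40 in ZnO-UVR and 8.18 ± 0.52 in Control-UVR, the opposite order to the irradiated groups. With arrays weighted by their quality these 3 and 1 more transcript were called (4 in all). Over the 8 measured genes of the interferon list, Rtp4 among them, the median change of the difference was 0.64. It was 0.04 over the zinc transporters and -0.01 over all transcripts. Medians of this change with the array slope as a covariate were not computed.

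The ZnO product was last set against the other products, all under UVR. Here transcripts did differ. By the methods each group had its own cage, and the hour at which a liver was taken is not given. Product, cage and hour then cannot be told apart. ZnO + UVR minus the mean of TiO2 + UVR and Organic + UVR gave 117 called transcripts (1.19%), of which 103 were higher (1.05%) and 14 lower (0.143%) in ZnO + UVR. Npas2 led them. It averaged 6.63 ± 0.23 (SD, n = 5) in ZnO + UVR, 4.15 ± 0.25 in TiO2 + UVR, 4.16 ± 0.36 in Organic + UVR and 5.64 ± 0.42 in Control + UVR (SD, n = 6 each), and rose by 2.55 in ZnO + UVR against the other products (SE 0.36, adjusted p = 3.91e-05 in limma). The ZnO + UVR arrays began at 6.37, above the highest array of TiO2 + UVR (4.46) and of Organic + UVR (4.82). Nfil3 rose by 1.60, and its levels were 8.54 to 9.34 in ZnO + UVR, 7.01 to 8.08 in TiO2 + UVR, 7.12 to 7.50 in Organic + UVR and 7.96 to 9.32 in Control + UVR.

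Of the 12 clock genes 2 were called higher and 6 lower in this comparison, against 1.05% and 0.143% of all transcripts. The 6 include the probeset annotated to Ciart, whose target is not settled. Nr1d2, a nuclear receptor that represses clock activators, fell by 1.53 (adjusted p = 0.00032), with 7.15 to 7.89 in ZnO + UVR, 9.13 to 9.59 in TiO2 + UVR, 8.71 to 9.36 in Organic + UVR and 7.43 to 8.63 in Control + UVR. Tef, an output factor with the E-box shown above, fell by 1.15 and averaged 5.80 ± 0.15 in ZnO + UVR, 7.04 ± 0.26 in TiO2 + UVR, 6.81 ± 0.53 in Organic + UVR and 6.04 ± 0.32 in Control + UVR. Per1, with the other E-box shown, fell by 0.85 (adjusted p = 0.00754), Per2 by 0.65, the output factor gene Hlf by 0.67 and the probeset annotated to Ciart by 2.57. Control + UVR lay nearer to ZnO + UVR than to TiO2 + UVR in the group means of all of these 8 genes. Set against the mean of both other products, Per1 was an exception in the fitted differences. ZnO + UVR differed by -0.49 from Control + UVR and by -0.85 from that mean, so Control + UVR lay nearer to the mean.

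Other genes were called as well. Insig2, which holds back sterol synthesis by retaining the SREBP complex in the endoplasmic reticulum, rose by 1.17 (SE 0.16, adjusted p = 3.91e-05). It averaged 10.46 ± 0.16 in ZnO + UVR, 9.18 ± 0.34 in TiO2 + UVR, 9.50 ± 0.35 in Organic + UVR and 10.21 ± 0.32 in Control + UVR. It was the only sterol list gene called. Slc30a10 was the only zinc transporter called and rose by 1.44 (SE 0.21, adjusted p = 4.13e-05), with 8.27 to 8.73 in ZnO + UVR, 6.31 to 7.22 in TiO2 + UVR, 6.55 to 7.93 in Organic + UVR and 7.99 to 8.48 in Control + UVR. No array of the other products reached the ZnO + UVR range, while Control + UVR overlapped it, and the zinc transporter list had a median of 0.02 in this comparison. Slc30a1, whose promoter also holds the element, differed by -0.16. Hal, the first enzyme of histidine breakdown, rose by 0.78, and Ddc, which decarboxylates aromatic amino acids, by 1.27. The tubulin gene Tubb2a rose by 2.04 (9.26 ± 0.50 in ZnO + UVR, 7.14 ± 0.72 in TiO2 + UVR, 7.35 ± 0.35 in Organic + UVR and 8.95 ± 0.16 in Control + UVR). Nckap5 rose by 1.82, Lgalsl by 1.41 and Asap2 by 1.39.

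The comparisons share the ZnO + UVR arrays. For Insig2, Slc30a10, Tubb2a and Ddc the difference between ZnO + UVR and Control + UVR was 0.30, 0.19, 0.35 and 0.19, each with an interval that held 0, beside 1.17, 1.44, 2.04 and 1.27 against the other products. The count of 117 moved with single arrays. It was 66, 74, 68 or 71 without ZnO + UVR replicate 1, 2, 4 or 5, 205 without TiO2 + UVR replicate 1 and 238 without Organic + UVR replicate 1. With the array slope as a covariate 92 transcripts were higher and 97 lower. Prim1 (0.74) and the syndecan gene Sdc1 (0.61) lost their call without the replicate block, and both without ZnO + UVR replicate 1, 4 or 5. Prim1 also lost it without TiO2 + UVR replicate 4, 5 or 6 or Organic + UVR replicate 4, after quantile normalization (adjusted p = 0.109 in limma), with the array slope as a covariate (0.119) and in the fits of the compared groups alone (0.110 with the block and 0.204 without it). Pctp was not called without ZnO + UVR replicate 4 (0.72, adjusted p = 0.14 in limma), nor Per2 without ZnO + UVR replicate 1 (-0.53, adjusted p = 0.218) or 5 (-0.61, adjusted p = 0.115).

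**Figure D5:**
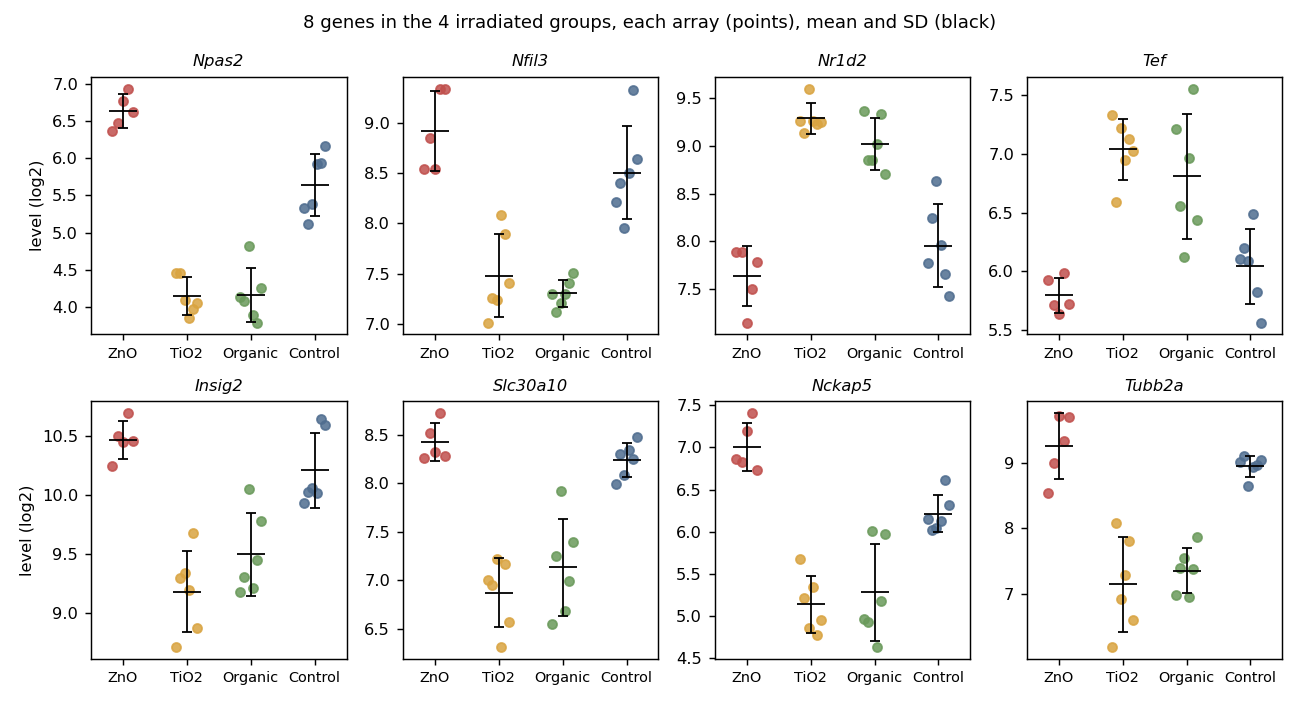
Level (log2) of 8 genes in each array of the 4 irradiated groups (points; 5 in ZnO, 6 in TiO2, Organic and Control), with the group mean and SD in black. ZnO + UVR arrays lie apart from the TiO2 + UVR and Organic + UVR arrays for each gene shown, and apart from Control + UVR for Npas2 and Nckap5.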

How the data were processed

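The arrays were Affymetrix Mouse Gene 1.0 ST, hybridised with liver RNA. The deposited values are log2 levels that the authors made by RMA, a tool the submitters' processing notes also name. The methods describe a removal of batch effects, and no source used here states if this preceded deposition. The table held 16383 probesets, of which 6568 control probesets (numbers below 10344614) were left out. Symbols came from the platform annotation, updated by Entrez number against GRCm38.p6 (7421 of 7450 matched).

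limma 3.58.1 in R 4.3.3 fitted the 47 arrays of 8 groups with the replicate number as a block (34 residual degrees of freedom). Fitted differences therefore differ slightly from differences of means. The call was a p under 0.1 after Benjamini-Hochberg adjustment over 9815 transcripts. A gene was its brightest transcript in lists. Array slopes were compared by an exact permutation test. The fit was also run on simulated data with independent noise for each transcript and array. Those data had no replicate effect and no array tilt, so they cannot show how either affects it.

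The comparisons, the gene lists and the rule for named genes were chosen with earlier results of these data known. The rule took the 10 smallest p-values in each direction, 2 genes of each list with 5 or more measured, all zinc and clock genes, 3 genes of each other comparison, genes called in Control + UVR against Control-UVR and up to 5 non-overlapping genes in each direction. Dnase1l3, Oit3, Pecam1, Tubb2a, Asap2, Ddc and Lgalsl, and list members given as examples, were named after their values were seen. Alternatives were no replicate block, the compared groups alone, array weights, quantile normalization, the array slope as a covariate, dim transcripts left out, an adjusted p under 0.05, eBayes with trend and robust settings, 1 transcript per gene, and leaving out arrays.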

Additional observations from a re-analysis of the deposited data

Results flagged for a closer look

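In 240 checks of 1 group each (119 named transcripts and the array slope in ZnO + UVR and in Control + UVR), a single array stood far from the others in 20, where chance gives about 1 in 20. In ZnO + UVR, Marco was high in replicate 5 (6.20, against 4.72 to 5.13), as was Abcd2 in replicate 3 (10.02, against 9.26 to 9.34), N6amt1 in replicate 2 (5.90), Pctp in replicate 4 (7.71) and Pes1 in replicate 4 (7.01). Low values were those of 2610008E11Rik in replicate 5 (6.57), Hmcn1 in replicate 2 (3.65) and Tcl1b2 in replicate 1 (2.66).

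Control + UVR replicate 1, which also had the lowest array slope (0.928) and the lowest array weight of these groups (0.31), was low for Amdhd1 (8.14, against 9.18 to 9.62 in the other arrays), Csnk1d (7.23, against 8.03 to 8.35), Ddc (7.46, against 8.60 to 9.22), the probeset annotated to Me1 (7.81, against 8.72 to 9.06), Pygl (10.20, against 10.68 to 10.96) and Slc39a9 (6.41, against 6.94 to 7.20). Control + UVR replicate 5 was high for Nr4a1 (6.66, against 5.10 to 5.36) and Socs3 (6.45, against 5.63 to 5.91) and low for Fdft1 (10.50, against 10.88 to 11.04). In other Control + UVR arrays Acot2 was low (4.98, replicate 6), Oit3 high (6.58, replicate 2) and Tubb2a low (8.64, replicate 3).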

How the results depend on the processing

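ZnO + UVR against Control + UVR had 0 called transcripts in every alternative and with any 1 of the 11 arrays left out, except 1 (Npas2) in the fit of the 11 arrays with the replicate block. The replicate numbers pair no animals. By the methods a chip of each group was processed per batch, but the labels do not say if the number is the batch. Arrays of the same number in ZnO + UVR and Control + UVR correlated in their deviations at 0.22, 0.0017, 0.27, 0.32 and 0.13. Of 5 ZnO + UVR arrays 2 correlated best with their own number. Over all pairs of groups the median was 0.15 for the same number and -0.03 for other numbers. Of all 47 arrays 20 correlated best on average with their own number. Without the replicate block the count stayed 0, and the 117 transcripts of ZnO + UVR against the other products became 74 (63 higher, 11 lower). That count was 414 with array weights (313 and 101), 189 with the array slope as a covariate (92 and 97), 199 with dim transcripts left out (173 and 26), 206 without Organic-UVR replicate 1 (167 and 39), and 66 to 238 with 1 array left out. The change of the ZnO difference with UVR had 0 called transcripts, and 4 with array weights. The array slope difference was 0.0235 to 0.0435 with 1 array left out. The causes were not tested.

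Uncalled differences near 0 changed sign. With the array slope as a covariate they were -0.015 for Csnk1d, -0.12 for Hlf, -0.10 for Serpina3n, -0.0020 for Slc30a1, -0.11 for Slc30a5, 0.017 for Slc39a5 and -0.098 for Slc39a9. After quantile normalization they were -0.061 for Hlf, -0.020 for Serpina3n, -0.031 for Slc30a1 and -0.011 for Slc39a9, and in the fit of the 11 arrays with the block -0.028 for Hlf. With 1 array left out they ran from -0.10 to 0.34 for Ccl2, -0.044 to 0.11 for Hlf, -0.038 to 0.47 for Marco, -0.035 to 0.14 for Serpina3n, -0.014 to 0.17 for Slc30a1, -0.022 to 0.17 for Slc30a5, -0.038 to 0.27 for Slc39a10, -0.10 to 0.020 for Slc39a11, -0.13 to 0.026 for Slc39a5 and -0.20 to 0.0025 for Socs3. RMA values carry no detection call, so a difference between dim levels has no lower bound from the signal over background.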
